A study of Danio rerio with 8 samples.

Results

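The 9 genes described here are transcripts that fibroblast growth factor (FGF) signalling is known to induce through the kinase ERK: the transcription factor genes etv4, etv5a and etv5b, the sprouty genes spry1, spry2 and spry4, the phosphatase gene dusp6, and the inhibitor genes spred1 and il17rd. They were taken by gene name from a table of 32520 genes, in which each of these 9 names had 1 row, and all 9 were among the 15559 genes with enough counts to be tested. Their levels were read in 8 RNA-seq libraries, prepared from GFP-sorted cells of zebrafish larvae 96 hours after fertilization. Of these, 4 came from larvae given a morpholino, an antisense oligomer, against exon-intron junction 10 of hpse2, which encodes heparanase 2 (Hpa2). They are called LOF-labelled here, after their label of Hpa2 loss of function. The other 4 were controls given a standard control morpholino in equimolar amount. All larvae were of wild-type genotype and carried the transgene Tg(fli1:EGFP)y1, in which fli1a regulatory sequence drives GFP in endothelium and also in cranial neural crest derivatives. For each isolation 60 to 80 larvae were pooled and dissociated with 0.25% trypsin, and injection took place at the one-cell stage. Each group had 2 biological replicates of 2 libraries. They are numbered 1_1, 1_2, 2_1 and 2_2, and whether libraries of 1 replicate came from separate pools of larvae is not labelled.

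FGF ligands bind their receptors together with heparan sulfate chains at the cell surface, and the receptors signal through Ras, Raf, MEK and ERK. Activated ERK raises transcription of ETS factors of the PEA3 group, to which etv4, etv5a and etv5b belong, and of inhibitors that act back on the same cascade, so the transcripts are commonly used as a readout of the pathway in zebrafish embryos. Other receptor tyrosine kinases that signal through ERK, among them the VEGF receptors of endothelium, can induce several of the same genes. Since heparanase 2 binds heparan sulfate, the comparison of the groups asks whether these targets differ when its gene is targeted.

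The libraries held 7504508 to 9475118 counts in the LOF-labelled group and 5048839 to 11344918 in the controls. The targeted gene hpse2 (chromosome 13, 40501455 to 40668077, GRCz11) was at 83.3, 83.3, 47.4 and 49.0 CPM in LOF-labelled 1_1, 1_2, 2_1 and 2_2, against 27.7, 20.6, 32.4 and 33.1 CPM in the controls of the same numbers. CPM here are counts over TMM-scaled library sizes, on a common total. The gene was thus higher under the label. Each LOF-labelled value was above each control value, with an adjusted p of 0.130 by edgeR and 2.19e-04 by DESeq2. Both fits treat the libraries as independent, so these p-values can be too small. A splice-blocking morpholino need not lower the number of reads per gene, so the loss of function could not be checked here. Why the reads of hpse2 were higher was not tested. The labelled cell type is endothelium, and 27 endothelial markers summed to 946 to 1411 CPM in LOF-labelled libraries and 922 to 1397 CPM in controls, none of them at 0. Markers of neural crest and cartilage (29 genes, none at 0) summed to 23230 to 33311 CPM in LOF-labelled libraries and 36823 to 43625 CPM in controls, so the sorted cells were a mixture. In such bulk samples fewer cells of a type and less RNA per cell cannot be told apart. The groups were not what principal component 1 (40.3% of variance) separated. LOF-labelled 2_1 and 2_2 fell on the same side as control 1_1 and 1_2, and these 4 libraries are called the first library set. LOF-labelled 1_1 and 1_2 and control 2_1 and 2_2, on the other side, are the second set.

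Of the 9 genes, 0 were called different between LOF-labelled and control libraries, in a test in which 14 of 15559 genes, 0.09%, were called (edgeR's quasi-likelihood test, adjusted p under 0.05). DESeq2, which called 0.617% of all genes, and edgeR with the library set described above as a block, which called 2.55%, also called 0 of the 9. At an unadjusted p under 0.05 there was 1 of 9, etv5a, against 6.29% of all genes tested. The groups did not overlap for 1 of 9, also etv5a, against 4.65% of all genes. The log2 fold change, LOF-labelled minus control throughout, was below 0 for 4 genes and above 0 for 5, and it was below 0 for 49.7% of all genes tested. Its median was 0.0098 over the 9 genes and 0.0017 over all genes tested. The 95% interval of the fold change lay within 1.5-fold in either direction for 6 genes, etv5b, spry1, spry2, spry4, spred1 and il17rd, and within 2-fold for 8, with etv5a the exception. With counts summed per biological replicate the first number was 4. The p-values and intervals treat the 8 libraries as independent, and the 2 libraries of a biological replicate had a correlation of 0.504 in a fit with the replicate as a random effect, so both can be too small.

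Levels of different genes were compared after division by the gene length given with the counts. The sprouty genes spry4 and spry2 stood highest, at 146 ± 15.0 and 143 ± 9.83 CPM per kilobase in LOF-labelled libraries and 149 ± 5.23 and 136 ± 10.8 CPM per kilobase in controls (mean ± SD, n = 4), and their ranges overlapped in both groups. Next came etv5b, spry1, il17rd, spred1 and etv4, at means of 18.4, 18.3, 16.8, 12.5 and 9.30 CPM per kilobase in LOF-labelled libraries and 22.2, 18.2, 14.8, 12.4 and 10.4 in controls. Within that run the ranges of neighbours overlapped in both groups, except for spry1 and il17rd in controls and for il17rd and spred1 in LOF-labelled libraries. At the low end were etv5a, at 0.684 ± 0.196 CPM per kilobase in LOF-labelled libraries and 1.39 ± 0.478 in controls, and dusp6, at 0.975 ± 0.172 CPM per kilobase in LOF-labelled libraries and 0.927 ± 0.168 in controls, with overlapping ranges. The steps from spry2 to etv5b and from etv4 to etv5a separated the ranges in both groups. By average CPM, spry4 stood above 98.5% of the genes tested, and dusp6 above 12.99%.

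**Figure D1:**
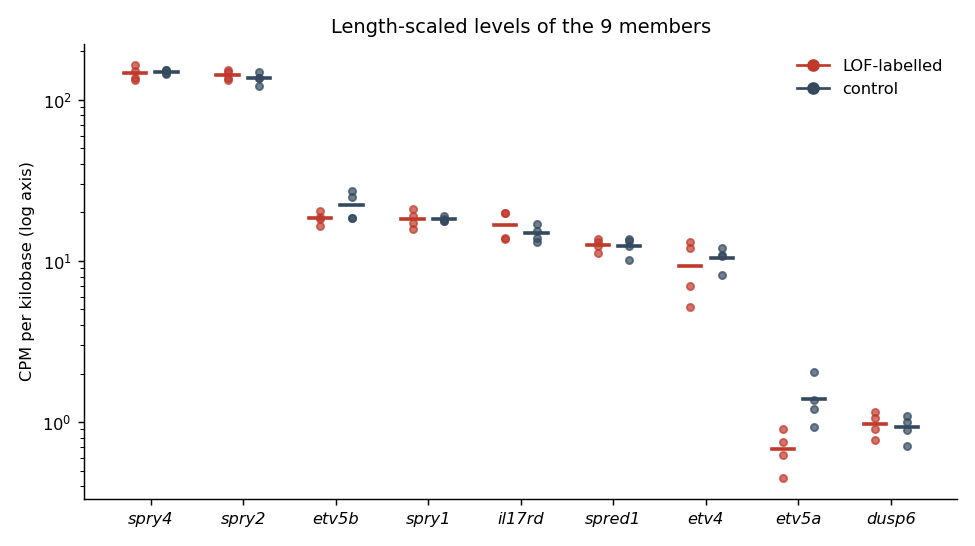
Length-scaled levels of the 9 genes in CPM per kilobase on a log axis, with 1 point per library and a bar at the mean of each group of 4. The genes run from spry4 and spry2, with means of 136 to 149, down to etv5a and dusp6, and etv5a is the gene at which the LOF-labelled points lie lowest against the controls.

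The transcription factor genes of the PEA3 group were described first. The least abundant of them, etv5a (chromosome 9, 22631672 to 22649297, forward strand), had 2.91, 2.39, 1.72 and 3.50 CPM in LOF-labelled 1_1, 1_2, 2_1 and 2_2, against 7.89, 3.57, 5.26 and 4.65 CPM in the controls of the same numbers. Every LOF-labelled value was below every control value, though LOF-labelled 2_2 and control 1_2 nearly met, and on the unscaled total the groups overlapped (3.46 CPM in LOF-labelled 2_2 against 3.37 CPM in control 1_2). Among all genes tested, 2.62% had all LOF-labelled libraries below all controls. The log2 fold change of etv5a was -1.03 (SE 0.31), with an unadjusted p of 0.00723 that was the 204th smallest of the 15559, and the adjusted p was 0.542 (edgeR). An exact two-sided permutation test over the libraries gave p = 0.0286, the smallest that 70 arrangements can give. That value follows from the lack of overlap in scaled CPM and adds nothing to it. It also treats the 8 libraries as independent.

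The counts behind etv5a were few, 13 to 26 per LOF-labelled library and 17 to 66 per control library. In sum they were 85 in LOF-labelled libraries and 179 in controls, a depth-corrected ratio of 0.481 (exact 95% interval 0.367 to 0.626, which covers counting error only). The log2 difference of etv5a was -1.04 within the first library set and -0.85 within the second. Control 1_1 was the highest of the 8 libraries, and without it the log2 fold change was -0.78 with an adjusted p of 0.895 (edgeR). Libraries of 1 biological replicate were also compared, and the exact interval left out a ratio of 1 for control replicate 1 alone. The depth-corrected ratio was 0.442 (exact 95% interval 0.243 to 0.762) between control 1_2 and 1_1. Between LOF-labelled 2_2 and 2_1 it was 2.01 (interval 0.998 to 4.27). It was 0.826 (interval 0.443 to 1.54) between LOF-labelled 1_2 and 1_1 and 0.875 (interval 0.574 to 1.34) between control 2_2 and 2_1.

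Its paralog etv5b (chromosome 6, 14030903 to 14040161, reverse strand), known in zebrafish as erm, made up most of the group's transcripts. Its level was 77.6, 83.8, 67.6 and 74.8 CPM in LOF-labelled 1_1, 1_2, 2_1 and 2_2, against 102, 111, 76.3 and 75.7 CPM in the controls of the same numbers. Controls 1_1 and 1_2 stood above all other libraries, while controls 2_1 and 2_2 lay within the LOF-labelled range. Over all libraries it differed by -0.26 on the log2 scale (SE 0.14, adjusted p = 0.821 by edgeR). In the first set the difference was -0.58, in the second it was 0.086.

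The third gene of the group, etv4 (chromosome 12, 27536095 to 27568694, forward strand), known as pea3, had 23.6, 13.8, 25.7 and 10.2 CPM in LOF-labelled 1_1, 1_2, 2_1 and 2_2, against 21.3, 16.2, 21.4 and 23.6 CPM in the controls of the same numbers. The LOF-labelled libraries held both the lowest and the highest values, and the difference between the groups was smaller than the spread (log2 fold change -0.18, SE 0.27, adjusted p = 0.963 by edgeR). The spread lay between the 2 libraries of a biological replicate. LOF-labelled 2_2 held 76 counts of etv4 and LOF-labelled 2_1 held 194, a depth-corrected ratio of 0.394 (exact 95% interval 0.298 to 0.517). Only 1.29% of the genes tested differed as much between these 2 libraries. The same ratio was 0.588 (interval 0.467 to 0.738) between LOF-labelled 1_2 and 1_1, 0.743 (interval 0.561 to 0.975) between control 1_2 and 1_1, and 1.09 (interval 0.897 to 1.33) between control 2_2 and 2_1. In those pairs, in the same order, 6.63%, 26.6% and 56.0% of the genes tested differed as much. An annotated antisense gene across etv4 had 5 counts in all 8 libraries together.

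As a group, etv4, etv5a and etv5b summed to 104, 100.02, 95.02 and 88.5 CPM in LOF-labelled 1_1, 1_2, 2_1 and 2_2, against 132, 131, 103 and 104 CPM in the controls of the same numbers. The controls of biological replicate 1 were the high libraries, and LOF-labelled 1_1 lay just above controls 2_1 and 2_2. On the unscaled total the groups did not overlap, with 87.7 to 105 CPM in LOF-labelled libraries and 106 to 127 CPM in controls. There LOF-labelled 1_1, at 105.3 CPM, nearly met controls 2_1 and 2_2, at 106.5 and 106.4 CPM. The log2 difference of the sum was -0.52 in the first set, against -0.019 in the second set. Of the 3 transcripts, etv5b accounted for 71.1% to 84.5% of the sum in LOF-labelled libraries and 72.8% to 84.9% in controls.

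Marker sums of other cell types also differed between the groups or between the controls. The neural crest and cartilage sum given above was lower in each LOF-labelled library than in every control. Among the 27 tested genes of this list the median log2 difference was larger within the first set, at -0.97, than within the second, at -0.26. Over all libraries 20 of them had a log2 fold change below 0 and 7 above 0, against 49.7% below 0 of all genes tested. By edgeR 3 were called, all lower in LOF-labelled libraries, against 0.09% of all genes called. The list of 19 neuronal genes, none at 0, summed to 351 to 377 CPM in LOF-labelled libraries and 385 to 508 CPM in controls. Of 21 photoreceptor and lens genes, 20 were in the table, and opn1lw1, guca1b, crygm2d12 and cryaa were at 0 in all libraries. These 20 summed to 127 to 259 CPM in LOF-labelled libraries, against 862 and 593 CPM in controls 1_1 and 1_2 and 107 and 97.0 CPM in controls 2_1 and 2_2. By this sum LOF-labelled 1_1 and 1_2, at 127 and 136 CPM, stood above the controls of their set. By gene the list leaned the other way, with a median log2 difference of -0.16 within the second set over its 13 tested genes. All 13 had a log2 fold change below 0 over all libraries. The list of 21 fibroblast genes, none at 0, had the higher mean sum in LOF-labelled libraries, but the groups overlapped. It summed to 43216 to 53448 CPM in LOF-labelled libraries and 38676 to 44822 CPM in controls. Genes at 0 in all libraries were krt5, cldni and epcam (epidermis), mylpfa (muscle), and hbba1 and alas2 (erythrocytes). Sums of epidermal, muscle, erythrocyte, and neutrophil and macrophage genes overlapped between the groups. Among the controls they were higher in 1_1 and 1_2 than in 2_1 and 2_2. They were 3164 and 3531 against 2322 and 2222 CPM for epidermis and 1311 and 1899 against 598 and 342 CPM for muscle. For erythrocytes they were 1827 and 2121 against 998 and 907 CPM, and for neutrophils and macrophages 1843 and 2265 against 1441 and 1397 CPM. LOF-labelled 2_1 and 2_2 share the set of controls 1_1 and 1_2. They had 3203 and 3361 CPM for epidermis, 2555 and 2664 CPM for erythrocytes and 1802 and 1751 CPM for neutrophils and macrophages. LOF-labelled 1_1 and 1_2 had 2268 and 2049, 1036 and 1014, and 1227 and 1117 CPM in the same order. The muscle sum was 541, 3114, 117 and 114 CPM in LOF-labelled 1_1, 1_2, 2_1 and 2_2. The part of these cell types in the values of etv5a and etv5b was not tested.

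**Figure D2:**
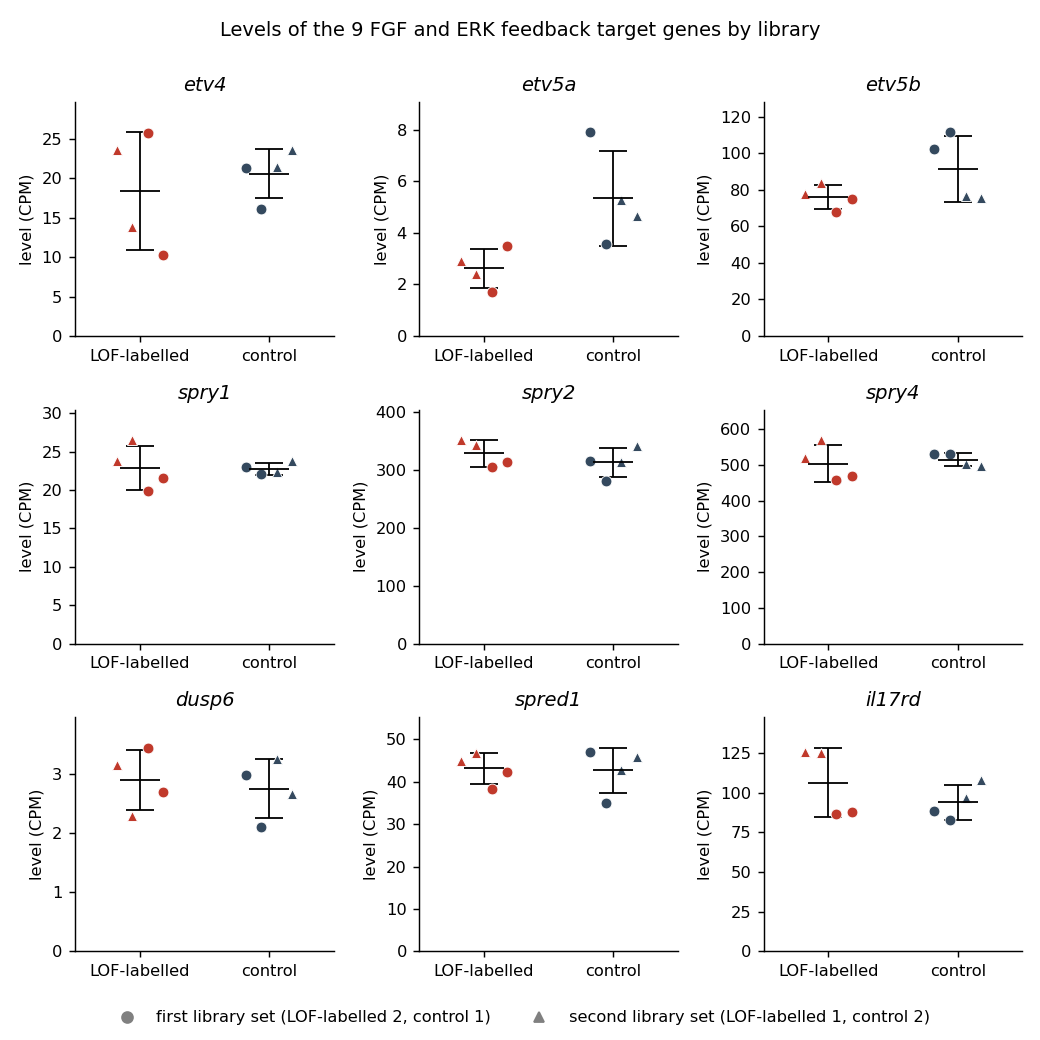
Level in CPM of each of the 9 genes in the 8 libraries, LOF-labelled left of control, with the mean and SD of 4 libraries in black and the symbol giving the library set. The groups overlap for every gene but etv5a, etv4 is spread widely within the LOF-labelled group, and il17rd is highest in LOF-labelled 1_1 and 1_2.

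The sprouty genes encode membrane-associated inhibitors that dampen signalling from receptor tyrosine kinases to ERK. The gene of the 9 with the highest CPM in every library, spry4 (chromosome 21, 44684577 to 44691068, forward strand), had 520.3, 569.6, 457 and 468 CPM in LOF-labelled 1_1, 1_2, 2_1 and 2_2, against 531, 529.9, 503 and 496 CPM in the controls of the same numbers. The LOF-labelled values surrounded the control values. Its log2 fold change was -0.032 (SE 0.098, adjusted p = 0.982 by edgeR), and its 95% interval corresponded to 0.842-fold to 1.14-fold.

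For spry2 (chromosome 1, 5273481 to 5277583, forward strand) the levels were 351, 343, 304 and 314 CPM in LOF-labelled 1_1, 1_2, 2_1 and 2_2, against 315, 281, 314 and 341 CPM in the controls of the same numbers. The ranges of the groups overlapped over most of their length. On the log2 scale the fold change was 0.068 (SE 0.095, adjusted p = 0.960 by edgeR), with a 95% interval of 0.906-fold to 1.21-fold.

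The third sprouty gene, spry1 (chromosome 14, 497695 to 498979, reverse strand), had 23.8, 26.5, 19.9 and 21.5 CPM in LOF-labelled 1_1, 1_2, 2_1 and 2_2, against 23.0, 22.1, 22.3 and 23.8 CPM in the controls of the same numbers. The controls lay close together, and the LOF-labelled libraries fell on both sides of them. On the log2 scale the fold change was 0.0098 (SE 0.12, adjusted p = 0.996 by edgeR), with a 95% interval of 0.837-fold to 1.21-fold.

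The makeup of the sprouty transcripts overlapped between the groups. Of their summed CPM, spry4 made up 58.9% ± 1.18 in LOF-labelled libraries and 60.6% ± 2.50 in controls (mean ± SD, n = 4). The share of spry2 was 38.4% ± 1.28 in LOF-labelled libraries and 36.8% ± 2.46 in controls, and that of spry1 was 2.68% ± 0.115 in LOF-labelled libraries and 2.68% ± 0.0546 in controls. Within the LOF-labelled group all 3 sprouty genes were higher in both libraries of biological replicate 1 than in those of replicate 2. Their sum was 895 and 939 CPM in LOF-labelled 1_1 and 1_2 and 781 and 804 CPM in LOF-labelled 2_1 and 2_2. In the controls it stood between 833 and 869 CPM.

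The phosphatase gene dusp6 (chromosome 25, 18326298 to 18330503, reverse strand), also called MKP3, encodes an enzyme that removes phosphate from ERK. It was scarcely detected, with 20 to 26 counts per LOF-labelled library and 10 to 31 per control library. The levels were 3.16, 2.29, 3.45 and 2.69 CPM in LOF-labelled 1_1, 1_2, 2_1 and 2_2, against 2.99, 2.10, 3.26 and 2.67 CPM in the controls of the same numbers. The groups overlapped, at a log2 difference of 0.054 (SE 0.27, adjusted p = 0.993 by edgeR). At this depth the 95% interval, 0.689-fold to 1.56-fold, was wide.

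The gene spred1 (chromosome 17, 52639492 to 52659119, reverse strand) encodes a sprouty-related protein that restrains activation of Raf by Ras. It had 45.0, 46.9, 38.3 and 42.4 CPM in LOF-labelled 1_1, 1_2, 2_1 and 2_2, against 47.0, 35.1, 42.7 and 45.9 CPM in the controls of the same numbers. Control 1_2 was the lowest library and the other values mixed between the groups. Its log2 fold change was 0.012 (SE 0.12, adjusted p = 0.995 by edgeR), with a 95% interval of 0.842-fold to 1.21-fold. The gene angel1, annotated on the other strand across part of spred1, had 105 counts in all libraries together.

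The receptor-like inhibitor il17rd (chromosome 11, 42641404 to 42722658, forward strand), known as sef, had 126 and 125 CPM in LOF-labelled 1_1 and 1_2 and 86.9 and 88.0 CPM in LOF-labelled 2_1 and 2_2. The controls had 88.4, 82.8, 96.6 and 108 CPM in 1_1, 1_2, 2_1 and 2_2. The LOF-labelled libraries of biological replicate 1 stood above all others, and those of replicate 2 lay within the control range. Its log2 fold change was 0.18 (SE 0.15, adjusted p = 0.907 by edgeR), with 0.032 in the first set against 0.30 in the second set. The means of both sets differed by 0.39 on the log2 scale, the second above the first, the widest gap between the sets among the 9 genes. The endothelial marker sum was 1295 to 1411 CPM in the second set and 922 to 1003 CPM in the first, and it was as high in controls 2_1 and 2_2 as in LOF-labelled 1_1 and 1_2. The fibroblast sum, like il17rd, was highest in LOF-labelled 1_1 and 1_2, at 50287 and 53448 CPM, against at most 44822 CPM in the other libraries. The part of either in the level of il17rd was not tested.

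**Figure D3:**
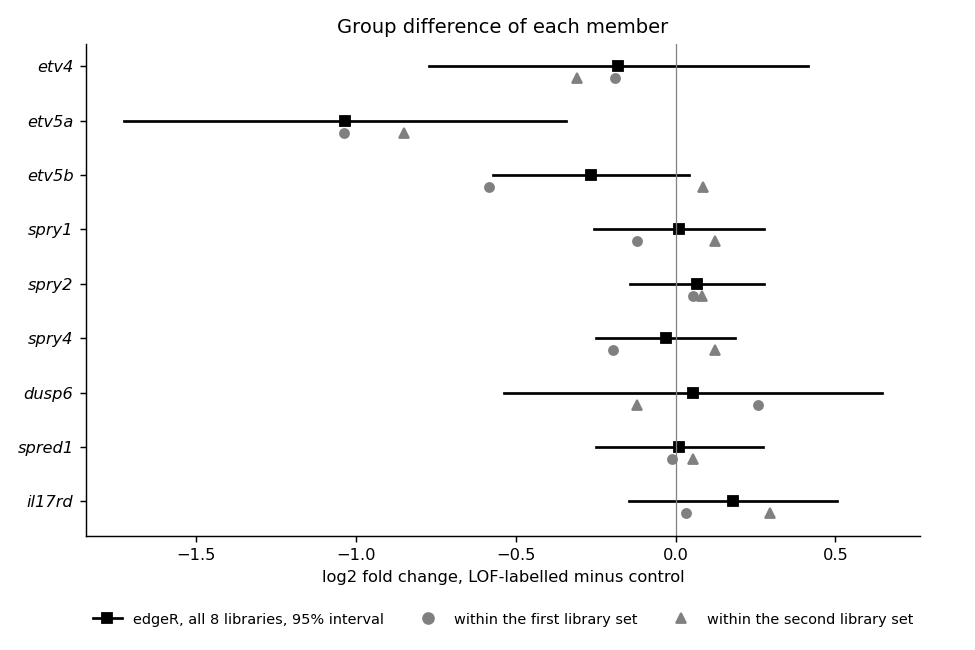
Log2 fold change, LOF-labelled minus control, of the 9 genes with its 95% interval from edgeR (black squares and lines), and the difference of mean log2 CPM within each library set (grey symbols). The interval of etv5a, -1.73 to -0.34, is the one that leaves out 0, with no adjustment for the number of genes, and the sets differ in sign for 5 genes.

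Within the 2 library sets, etv4 and etv5a were lower in LOF-labelled libraries in both, spry2 and il17rd were higher in both, and the other 5 genes differed in sign between the sets. The sum of all 9 genes was 1173, 1213, 1005 and 1025 CPM in LOF-labelled 1_1, 1_2, 2_1 and 2_2, against 1139, 1084, 1085 and 1122 CPM in the controls of the same numbers. Its log2 difference was -0.0088 over all libraries, -0.13 within the first set against 0.11 within the second. Since spry4 and spry2 made up 45.6% and 29.7% of the sum in LOF-labelled libraries and 46.5% and 28.2% in controls, the sum mostly followed these genes.

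Immediate early genes, which ERK and stress both induce within minutes, separated the library sets and not the groups. The list of 33 dissociation and immediate early genes, none at 0, summed to 26900.2 to 29407 CPM in the first set, against 16991 to 19894 CPM in the second. The early ERK target egr1, named after its values were seen, had 1379, 1391, 1632 and 1587 CPM in LOF-labelled 1_1, 1_2, 2_1 and 2_2, against 1644, 1612, 1088 and 1187 CPM in the controls of the same numbers. Of the 9 genes described here, etv5b had the higher mean in the first set (89.0 CPM, against 78.3 CPM in the second). So did etv5a by mean CPM (4.17 CPM, against 3.80 CPM in the second), though its mean log2 CPM differed by -0.0076, second minus first. The other 7 genes had the higher mean in the second.

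**Figure D4:**
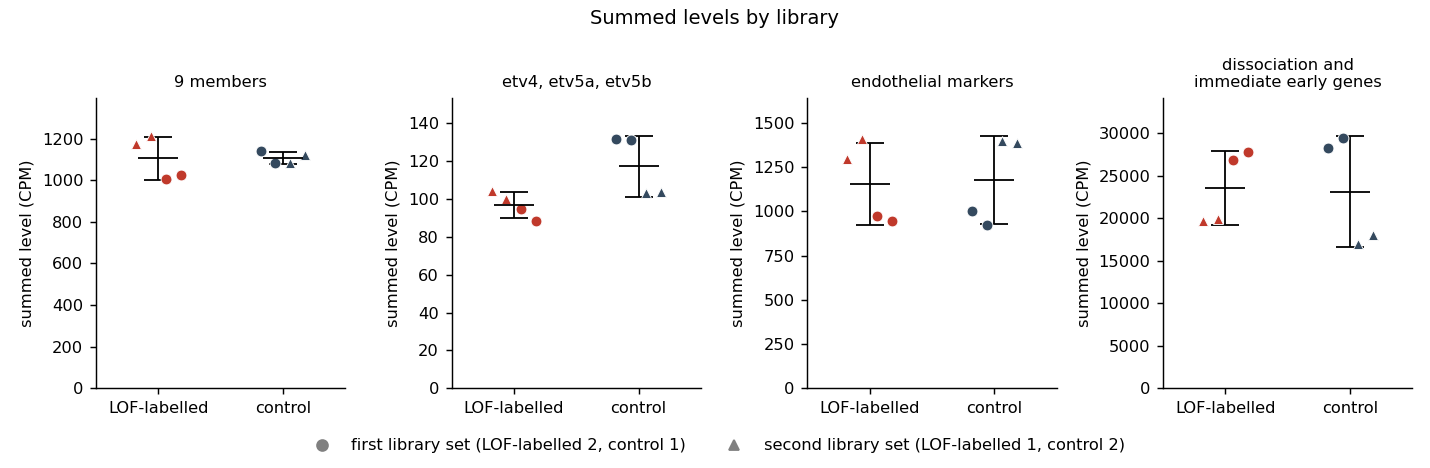
Summed level in CPM by library of the 9 genes, of etv4, etv5a and etv5b, of 27 endothelial markers and of 33 dissociation and immediate early genes, with the mean and SD of each group of 4 in black. Endothelial markers are higher in the second library set and immediate early genes in the first, in both groups, while the sum of the 9 genes stays between 1005 and 1213 CPM.

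The other genes of the pathway came from 4 lists. Of 39 further ERK targets and feedback regulators tested (48 listed), 0 were called in either direction, against 0.09% of all genes tested. Their median log2 fold change was 0.015. Those with the smallest p were flrt1b (-0.92, SE 0.31, adjusted p = 0.588), phlda1 (-0.69, SE 0.25, adjusted p = 0.662) and trib1 (0.53, SE 0.24, adjusted p = 0.795), all by edgeR. The first encodes a membrane protein of a family that binds FGF receptors and had 3.29, 3.43, 1.59 and 1.88 CPM in LOF-labelled 1_1, 1_2, 2_1 and 2_2, against 4.31, 3.57, 5.64 and 5.77 CPM in the controls of the same numbers. Like etv5a, it was low in abundance, and its groups did not overlap in scaled CPM but overlapped on the unscaled total (3.48 CPM in LOF-labelled 1_2 against 3.37 CPM in control 1_2).

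Upstream, 0 of 10 receptors and receptor partners tested, 0 of 38 genes of the Ras and ERK cascade and 0 of 14 FGF ligands and binding proteins were called. Over all genes tested 0.09% were called, so a count of 0 in lists this short says little about the pathway. The median log2 fold changes of these upstream lists were 0.069, 0.038 and 0.12. The receptor gene fgfr3 had 115, 106, 89.6 and 82.5 CPM in LOF-labelled 1_1, 1_2, 2_1 and 2_2, against 142, 142, 158 and 159 CPM in the controls of the same numbers. Each LOF-labelled value was below each control value, and the log2 difference was -0.61 (SE 0.12, adjusted p = 0.108 by edgeR). It was called by DESeq2 (adjusted p = 0.0011) and by edgeR with the library set as a block (adjusted p = 1.23e-05). Neither fit takes into account that 2 libraries share a biological replicate, so both p-values can be too small. The library set was itself taken from principal component 1 of these data. Summing the counts of each biological replicate left fgfr3 uncalled (unadjusted p = 0.0132, adjusted p = 1.00 by edgeR). That fit called 0 of 17445 genes, so the lack of a call is not particular to fgfr3. Cartilage is a known site of fgfr3 expression, and the part that the lower sum of cartilage markers in LOF-labelled libraries, given above, has in fgfr3 was not tested.

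The other 2 receptors or receptor partners of smallest p were the adaptor frs3 (log2 fold change 0.84, adjusted p = 0.795) and fgfr1b (0.18, adjusted p = 0.852). The counts of frs3 were few, 5 to 18 per library. In the cascade the genes of smallest p were the Ras inhibitor nf1a (0.19, adjusted p = 0.812), the ERK-activated kinase rps6ka3a (-0.46, adjusted p = 0.852) and the Raf kinase araf (0.24, adjusted p = 0.877). Among ligands and binding proteins they were fgf24 (0.47, adjusted p = 0.752), fgf18a (0.28, adjusted p = 0.809) and fgfbp2a (0.24, adjusted p = 0.901), all by edgeR. The ligand fgf24 had 36.5, 19.7, 29.7 and 20.5 CPM in LOF-labelled 1_1, 1_2, 2_1 and 2_2, against 18.7, 18.1, 21.4 and 18.3 CPM in the controls of the same numbers. As with etv4, LOF-labelled 1_1 and 2_1 were higher than 1_2 and 2_2.

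**Figure D5:**
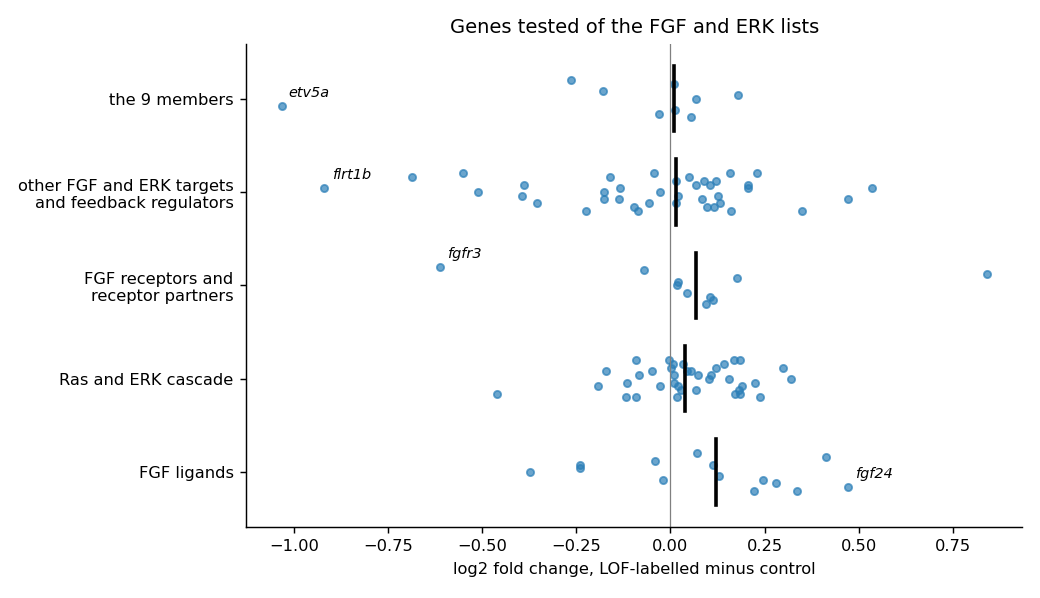
Log2 fold change, LOF-labelled minus control, of every tested gene of the 9 described here and of 4 further lists of the pathway, 1 point per gene, with a bar at each list's median. The medians lie between 0.0098 and 0.12. The named points, etv5a, flrt1b, fgfr3 and fgf24, have an adjusted p over 0.05 by edgeR without a block. By DESeq2, and by edgeR with the library set as a block, fgfr3 was called.

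The mean profile of the 9 genes over the 8 libraries was nearly flat, from -0.17 in LOF-labelled 2_2 to 0.19 in control 1_1 on the centred log2 scale. The genes with the smallest root mean square difference from it were cxxc5b (0.033), carhsp1 (0.044) and CABZ01058650.1 (0.047), whose own log2 fold changes were -0.11, -0.11 and -0.13 with an adjusted p of 0.928, 0.909 and 0.894 (edgeR). The measure picks out genes that stay close to this flat profile, so their small fold changes follow in part from that choice.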

How the data were processed

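RNA of sorted cells was sequenced, and the authors deposited unnormalized counts with gene names, coordinates and lengths in 1 table. The genome build is GRCz11, per the submitters' processing notes. The sources used here name no aligner, counter or strand setting. If strand was not used, reads of overlapping genes on opposite strands cannot be told apart. Columns were assigned through the sample descriptions, which differ from the column names in letter case alone.

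Genes were filtered with filterByExpr, scaled by TMM and tested with edgeR 4.0.16 (quasi-likelihood, robust, no replicate block, Benjamini-Hochberg over 15559 genes) in R 4.3.3. Log2 CPM carries a prior count of 2, and each SE is the fold change over the root of F. limma 3.58.1 and DESeq2 1.42.0 served alternatives. In simulated counts of this comparison (15559 genes) edgeR found 15.0% of 100.0 genes that changed 1.5-fold and 53.0% of 100.0 that changed 2-fold. The simulated libraries were drawn as independent, so these shares leave out the correlation inside biological replicates. All pairs of libraries of a group differed by more than sampling noise (chi-square per gene of 2.53 to 5.76 inside biological replicates, 13.7 to 24.3 across them).

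The 9 genes and all lists were chosen with earlier results of these data known, and so were the library sets. Named besides them are hpse2, up to 3 genes of smallest p per pathway list, and the 3 genes of nearest pattern.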

Additional observations from a re-analysis of the deposited data

How the results depend on the processing

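Under each of the 19 alternatives 0 of the 9 genes were called by edgeR, DESeq2 or limma-voom. The unadjusted p of etv5a was under 0.05 in all 19, with log2 fold changes of -1.19 to -0.78 and adjusted p of 0.0617 to 1.00, the smallest with the library set as a block. With that block 2473 of 15559 genes had an unadjusted p under 0.05 (edgeR), and the set came from principal component 1 of these data. The unadjusted p was also under 0.05 for etv5b in 3 alternatives and for il17rd in 1 (edgeR). All alternatives reuse the same 8 libraries. Signs changed for genes near 0. Leaving out 1 library gave -0.376 to 0.023 for etv4, -0.0698 to 0.081 for spry1, -0.097 to 0.021 for spry4, -0.037 to 0.155 for dusp6 and -0.067 to 0.073 for spred1, which was also at -0.016 with biological replicate as a random effect and with counts summed per biological replicate. For etv4 the sign turned without LOF-labelled 2_2. The summed level of the 9 genes ranged from -0.056 to 0.035 when 1 library was left out. The cause of these changes was not tested.

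Over all genes 14 were called, 32 without a low-count filter, 96 with DESeq2, 396 with the library set as a block, 5 with the random effect and 0 to 20 when 1 library was left out. Counts summed per biological replicate gave 0 (299 at an unadjusted p under 0.05, by edgeR). With the replicate number as a replicate block 0 were called (524 at an unadjusted p under 0.05, by edgeR). The numbers do not pair the libraries, since deviations from group means correlated at -0.338 to -0.23 between same-numbered libraries. The few counts of etv5a and dusp6 limit what can be seen for them.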
